A study of Mus musculus with 8 samples.

Results

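The R-spondins and the proteins that receive them form a family of 9 genes, chosen by name: the 4 secreted ligands *Rspo1*, *Rspo2*, *Rspo3* and *Rspo4*, the 3 receptors *Lgr4*, *Lgr5* and *Lgr6*, and the 2 membrane ubiquitin ligases *Rnf43* and *Znrf3*. All 9 were among the 46517 genes listed in bulk RNAseq of the mouse hippocampus, and 8 were among the 24051 genes listed in snRNAseq, where *Rspo4* was not listed. Each assay compared 2 mutant mice of the genotype *Wls fl/-;Gfap-Cre* with 2 control mice of the genotype *Wls fl/+;Gfap-Cre*, with 1 sample per mouse, all 12 weeks old and described as male. Both genotypes thus carry *Gfap-Cre*, a recombinase expressed from the *Gfap* promoter in progenitors of neurons and glia, and 1 floxed allele of *Wls*. The other *Wls* allele is null in the mutant and wild type in the control. The cross was made to lower Wnt secretion while the hippocampus, with its dentate granule cells (DGCs), develops.

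Wnts are lipid-modified ligands that need the chaperone Wntless, the product of *Wls*, to leave the cell that makes them. They act through Frizzled receptors and the co-receptors Lrp5 and Lrp6. Rnf43 and Znrf3 tag Frizzled receptors with ubiquitin and so take them off the cell surface. An R-spondin binds an Lgr receptor together with Rnf43 or Znrf3, removes the ligase from the membrane, and leaves the cell more responsive to Wnt. *Lgr5* is best known as a marker of stem cells in the intestine, and *Rnf43* and *Znrf3* are themselves targets of the pathway in several tissues.

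Bulk RNAseq libraries held 56002381 to 79576196 expected counts, and snRNAseq samples held 26307081 to 76486132 UMIs in 5304 to 10460 nuclei. DGCs made up 36.1% and 27.9% of the nuclei in control replicates 1 and 2 but 1.70% and 4.43% (90 and 463 nuclei) in mutant replicates 1 and 2, so values for mutant DGCs rest on far fewer nuclei than those for control DGCs. In bulk RNAseq, the female-specific transcript *Xist* stood at 0.12 and 0.35 TPM in control and mutant replicate 1 but at 175 and 101 TPM in control and mutant replicate 2. Both libraries numbered 2 thus went against the labelled sex, and ratios within each number are given below where genotypes do not overlap. In snRNAseq, *Xist* was at 1.6 to 3.49 CPM and the Y-linked *Ddx3y* at 31.6 to 53.8 CPM in all 4 samples. Between 8 and 21 barcodes were shared by any pair of snRNAseq samples.

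The member with the largest difference between genotypes was *Lgr6*, a receptor for all R-spondins that lies on chromosome 1 (GRCm38, 134983301 to 135105276, minus strand). Its start and that of *Lgr4*, the broadly expressed receptor on chromosome 2 (109917647 to 110014257, plus strand), are shown so that the regions upstream of 2 receptors can be compared. No *Lgr5* window was matched. Both sequences are the 250 bases before the annotated start, 5′ to 3′ on the strand of the gene, from RefSeq (GRCm38.p6), at chr1:135105277-135105526 and chr2:109917397-109917646, with motifs found in capitals.
Lgr6: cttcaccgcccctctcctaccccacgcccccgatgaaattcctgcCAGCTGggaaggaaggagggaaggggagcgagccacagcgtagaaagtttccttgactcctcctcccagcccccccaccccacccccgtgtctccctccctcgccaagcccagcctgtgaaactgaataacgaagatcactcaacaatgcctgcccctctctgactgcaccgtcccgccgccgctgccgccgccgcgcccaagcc
Lgr4: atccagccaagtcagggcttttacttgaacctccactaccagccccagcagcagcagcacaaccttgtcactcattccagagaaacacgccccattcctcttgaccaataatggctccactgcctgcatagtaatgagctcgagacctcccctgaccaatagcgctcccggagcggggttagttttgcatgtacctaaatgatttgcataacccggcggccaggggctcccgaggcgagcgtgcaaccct
The motifs searched on both strands were CTTTGAT, bound by TCF/LEF factors, CAGCTG, an E-box, and CAGATG, an E-box bound by NeuroD factors. Of 32851 promoter windows of this length, 3.21%, 13% and 14.4% held these motifs, respectively. The *Lgr6* window held CAGCTG and neither of the other motifs, and the *Lgr4* window held none. Windows were matched for 5 of the 9 members, and those of *Rspo1*, *Rspo4* and *Rnf43* (with 2 starts) also held none. A match is a description of letters only.

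Bulk RNAseq asks how much of each transcript the whole hippocampus held. Of 9 members, 8 passed the filter on low counts, and 1, *Lgr6*, was lower in the mutant at a fold change (FC) above 3 and a false discovery rate (FDR, Benjamini-Hochberg) below 0.05 by the quasi-likelihood test of edgeR. Of all 20687 genes tested, 0.198% were lower and 0.0193% higher by this rule. *Lgr6* was at 12.7 and 11.8 TPM in control replicates 1 and 2 and at 2.01 and 0.91 TPM in mutant replicates 1 and 2. Both mutant libraries lay far below both controls, a 9.45-fold difference (log2FC -3.24 ± 0.34 SE, edgeR FDR = 0.0282). Within replicate numbers 1 and 2, the log2 ratio of mutant to control was -2.87 and -3.76, so the difference was present in both pairs of libraries. The call was lost when either control library was left out, with edgeR FDR = 0.189 without control replicate 1 and 0.234 without control replicate 2, although log2FC stayed between -3.83 and -2.81 whichever library was omitted. In bulk tissue, fewer cells of a type and less RNA per cell cannot be told apart. Beside this value, the summed level of 5 DGC markers (*Prox1*, *Dsp*, *C1ql2*, *Calb1* and *Plk5*) was 197 and 202 TPM in controls and 52.4 and 46.6 TPM in mutants, and that of 6 choroid plexus markers was 176 and 74.8 TPM in controls and 1113 and 9119 TPM in mutants. No marker of either list was at 0 in any library. In snRNAseq, averaged over samples, *Dsp* and *Plk5* were at 39.8 and 36.6 CPM in choroid plexus nuclei beside 36.2 and 35.1 CPM in DGCs. *Prox1* was at 211 CPM in oligodendrocytes beside 299 CPM in DGCs. The summed level of the DGC markers is therefore not a measure of DGCs alone. The part of DGCs and choroid plexus in the *Lgr6* value of bulk tissue was not tested.

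**Figure D1:**
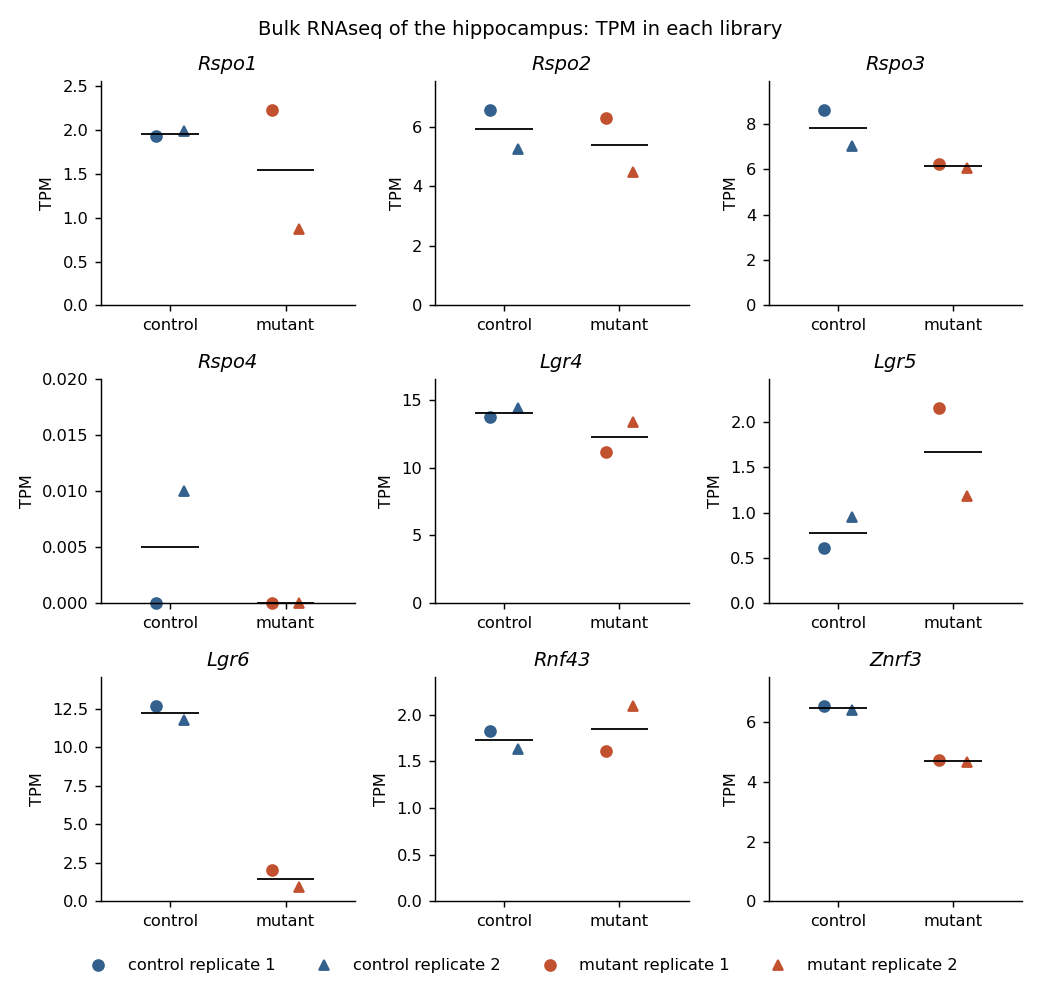
Level of each member in each bulk RNAseq library, in TPM on linear axes from 0, with circles for replicate 1, triangles for replicate 2 and a line at the mean of each genotype. *Lgr6* stood at 11.8 and 12.7 TPM in controls against 0.91 and 2.01 TPM in mutants, whereas most other members overlapped or differed little.

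The other 2 receptors did not pass the test. *Lgr4* was at 13.7 and 14.4 TPM in controls and at 11.2 and 13.4 TPM in mutants, the most abundant of the receptors per length in all 4 libraries, with both mutants below both controls in TPM (log2FC -0.11 ± 0.09 SE, edgeR FDR = 0.545). *Lgr5* was a low transcript, at 0.61 and 0.95 TPM in controls and 2.15 and 1.18 TPM in mutants. Both mutant libraries lay above both controls, but the difference did not pass the test (log2FC 0.64 ± 0.27 SE, edgeR FDR = 0.284). The log2 ratio was 1.09 within replicate number 1 and 0.25 within number 2. The length that RSEM gave *Lgr5*, which reflects its estimate of the isoforms used, was 2576 bases in mutant replicate 1 and 4187 to 4571 bases in the other 3 libraries, so that TPM and counts are not on the same footing for this gene.

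Among the ligands, *Rspo3* was the most abundant in each genotype by mean TPM, with 8.59 and 7.03 TPM in controls and 6.24 and 6.07 TPM in mutants. The genotypes did not overlap, but the difference did not pass (log2FC -0.26 ± 0.15 SE, edgeR FDR = 0.430). The antisense gene *Gm48159* overlaps exons of *Rspo3*, and whether the counts used strand is not given in the sources used here. *Rspo2* was at 6.56 and 5.27 TPM in controls and 6.31 and 4.50 TPM in mutants, which overlapped (log2FC -0.04 ± 0.23 SE, edgeR FDR = 0.950). *Rspo1* was at 1.93 and 1.98 TPM in controls and 2.22 and 0.87 TPM in mutants, with the mutants on either side of the controls (log2FC -0.38 ± 0.38 SE, edgeR FDR = 0.656). *Rspo4* had 1 expected count in control replicate 2 and 0 in the other 3 libraries. A count of 0 allows up to 0.0377 to 0.0536 CPM at these depths, which covers counting error only.

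The 2 ligases differed from each other. *Znrf3* was at 6.53 and 6.40 TPM in controls and at 4.74 and 4.66 TPM in mutants. The genotypes were well apart, with log2 ratios of -0.31 and -0.37 within replicate numbers 1 and 2, but the difference was small (log2FC -0.34 ± 0.10 SE) and did not pass after adjustment (unadjusted p = 0.0140, edgeR FDR = 0.159). *Rnf43* was at 1.83 and 1.63 TPM in controls and at 1.61 and 2.09 TPM in mutants, which overlapped (log2FC 0.13 ± 0.20 SE, edgeR FDR = 0.775). Over the 8 members tested, and on the scale of the test (TMM-scaled CPM, on which *Lgr4* overlapped), genotypes did not overlap in 3 that were lower in mutants (*Rspo3*, *Znrf3* and *Lgr6*) and in 1 that was higher (*Lgr5*), whereas 25.4% and 25.8% of all genes did so. At an unadjusted p below 0.05, 2 members were lower and 0 higher, and 9.94% and 8.86% of all genes were.

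The snRNAseq nuclei show which cells carry each transcript. Each value is the UMI count of a gene in one sample's nuclei of a deposited cell type, as CPM, which scales it to the total UMIs of those nuclei. This was done for the 11 types that reached 10 nuclei in all samples. The types were built from the same nuclei, so their differences are described and not tested. CPM is not corrected for length and is compared only across cells for 1 gene at a time. For 8 of 8 members the cell type with the highest control level was also the highest in the mutant samples.

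*Lgr6* was mainly a DGC transcript. Control replicates 1 and 2 had 82.1 and 141 CPM in DGCs, and the next type, CA2, was at 4.83 and 15 CPM. DGC nuclei held 91.1% (exact 95% binomial interval from 89.2%) and 90.0% (from 88.8%) of all *Lgr6* UMIs in control replicates 1 and 2, while being 36.1% and 27.9% of nuclei. An *Lgr6* UMI was found in 29.3% and 55.9% of DGC nuclei of control replicates 1 and 2, at medians of 4628 and 7688 UMIs per nucleus. In oligodendrocytes of control replicate 2, where *Lgr6* was at 1.96 CPM, the share was 0.486% at a median of 2339 UMIs. With every nucleus thinned to 1500 UMIs, 11.6% and 17.8% of control DGC nuclei had one, against 0.0972% of those oligodendrocytes. Outside DGCs, *Lgr6* stood at 4.01% and 3.99% of its DGC level in controls, and the DGC markers *Dsp* and *Plk5* at 4.68% and 3.85% and at 5.03% and 6.21% of theirs. *Prox1*, *C1ql2* and *Calb1*, the other 3 DGC markers, stood at 7.70% and 9.82%, 8.80% and 10.5%, and 14.5% and 18.5%. CA2 held 0.488% and 0.866% of *Lgr6* UMIs in controls (5 of 1025 and 22 of 2541) and 6.90% and 2.15% in mutants (6 of 87 and 15 of 698). These are shares of totals that were lower in mutants. The level within CA2 was not higher in mutants and overlapped (log2FC -0.44 ± 0.60 SE, edgeR FDR = 0.867). Whether the low *Lgr6* values of other types come from free RNA was not tested.

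*Lgr4* was highest in astrocytes, glial cells that support neurons, at 287 and 213 CPM in control replicates 1 and 2. The next types were inhibitory neurons (63.7 and 48.0 CPM) and excitatory neurons outside the named fields (54.6 and 36.2 CPM), which overlapped. *Lgr4* was detected in all 11 types of the controls, and the lowest levels were those of microglia (5.51 and 22.2 CPM) and oligodendrocyte precursors (OPCs, 14.4 and 13.6 CPM), which overlapped. *Lgr5* was highest in OPCs, at 67.7 and 106 CPM, above CA2 (17.4 and 13.6 CPM) and inhibitory neurons (14.9 and 12 CPM), which overlapped each other. OPCs held 19.8% and 33.3% of *Lgr5* UMIs while being 3.37% and 3.25% of control nuclei, and the more numerous inhibitory neurons held 35.9% and 29.0%. The 3 receptors were thus highest in 3 different types, *Lgr4* in astrocytes, *Lgr5* in OPCs and *Lgr6* in DGCs.

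The ligases also had separate distributions. *Rnf43* was highest in OPCs (119 and 148 CPM) and oligodendrocytes (117 and 117 CPM), the myelinating cells that OPCs give rise to, then in astrocytes (23.2 and 19.4 CPM), and below 8 CPM in every neuronal type of the controls. *Znrf3* was at 442 and 358 CPM in astrocytes, followed by OPCs (148 and 100 CPM), DGCs (130 and 113 CPM) and mossy cells (127 and 103 CPM), which overlapped in turn. Astrocytes were therefore the type with the highest level of both *Lgr4* and *Znrf3*, and OPCs of both *Lgr5* and *Rnf43*.

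The ligands were highest in types named as neurons. *Rspo1* and *Rspo2* were highest in mossy cells, excitatory neurons of the dentate hilus. *Rspo1* was low there, at 12.2 and 19.9 CPM from 5 and 11 UMIs. *Rspo2* was at 82.8 and 119 CPM in mossy cells, which did not differ beyond the spread from excitatory neurons outside the named fields (79.1 and 113 CPM). CA1 followed (32.3 and 39.4 CPM) and held 35.4% and 40.6% of all *Rspo2* UMIs of the controls, while DGCs were at 5.19 and 4.55 CPM. *Rspo3* had the flattest order of the ligands. DGCs (71.7 and 55.0 CPM), excitatory neurons (63.8 and 55.2 CPM), CA1 (60.4 and 55.7 CPM) and mossy cells (26.8 and 56.1 CPM) overlapped in turn, and mossy cells were the highest type without control replicate 1. A single cluster, 19, held 4.83% and 4.39% of these excitatory neurons but 30.6% and 45.4% of their *Rspo3* UMIs, and without it the type was at 45.2 and 31.0 CPM. CA3 pyramidal neurons differed from CA1 in this gene, with 7.67 and 14.1 CPM.

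**Figure D2:**
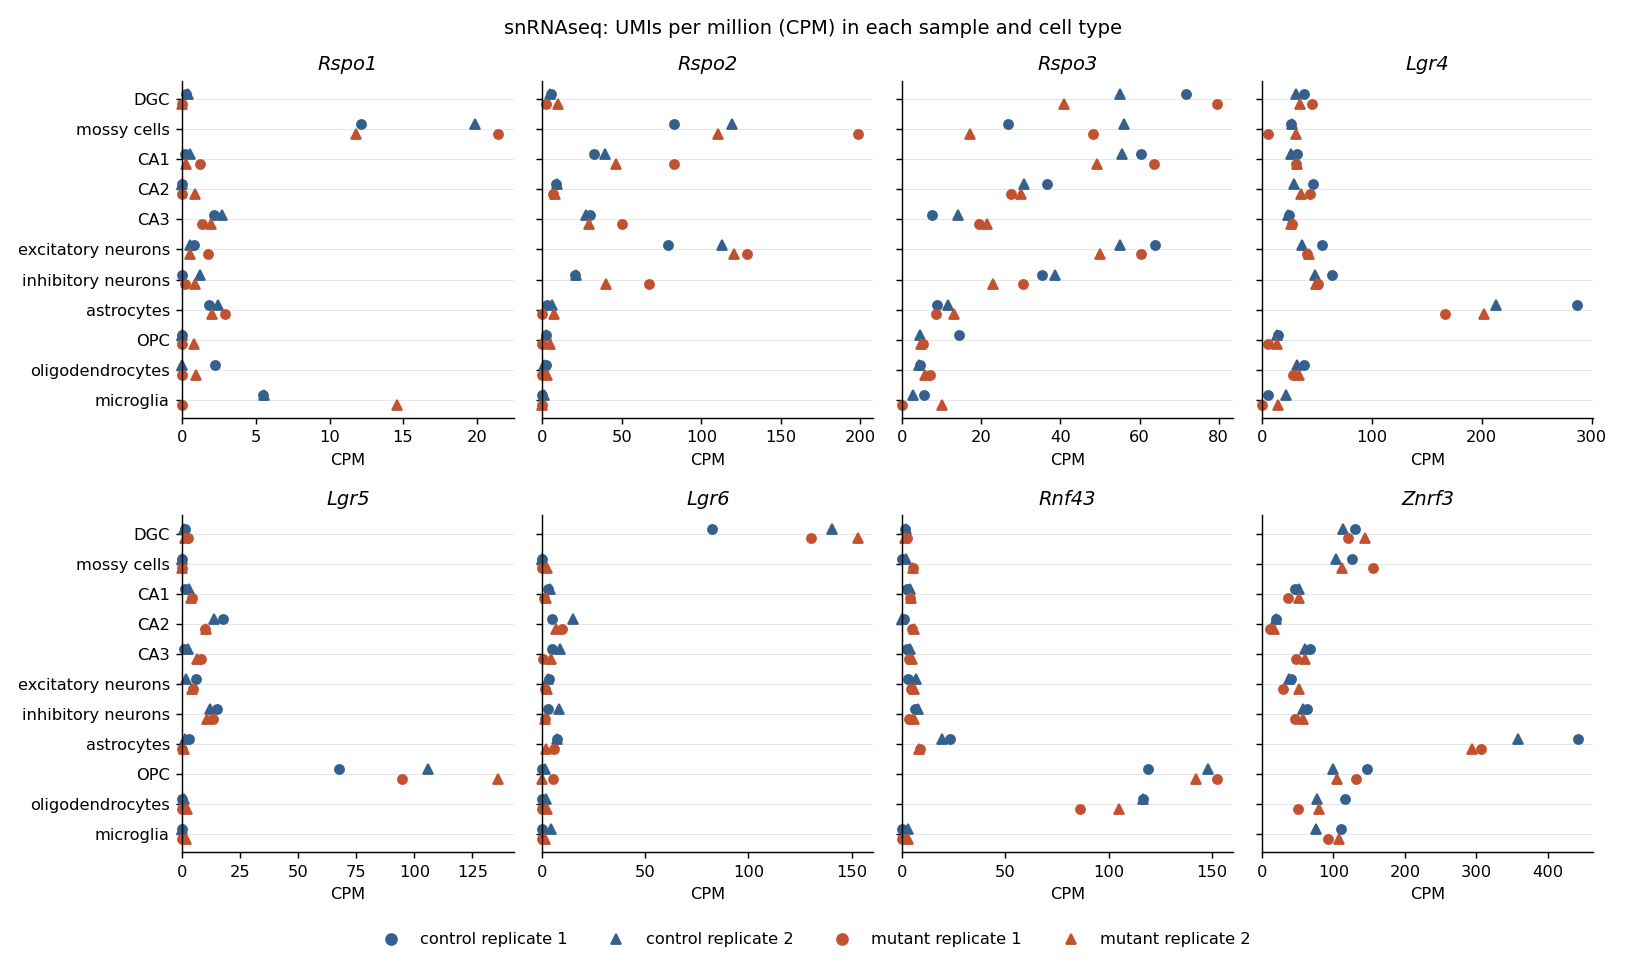
Level of 8 members in 11 cell types, in CPM on linear axes, with 1 point per sample (blue for control, red for mutant, circles for replicate 1, triangles for replicate 2). *Lgr6* was high only in DGCs among these types, *Lgr4* and *Znrf3* peaked in astrocytes, *Lgr5* and *Rnf43* in OPCs, and *Rspo2* in mossy cells and excitatory neurons.

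The deposited clusters show where the broad types hide a member. Cluster 19 of the excitatory neurons, with 33, 19, 19 and 64 nuclei in control replicates 1 and 2 and mutant replicates 1 and 2, had *Rspo3* at 992 and 859 CPM in controls and 652 and 589 CPM in mutants, the highest *Rspo3* level of any deposited cluster. The next cluster in control replicate 1, DGCs, was at 71.7 CPM. The name of this cluster is not borne out by its markers. Its 4 excitatory markers (*Neurod2*, *Nrn1*, *Slc17a6* and *Slc17a7*) summed to 21.0 to 124 CPM over samples, and none was highest there. By contrast, 5 neocortex markers summed to 1691 to 2748 CPM, 4 subiculum markers to 1454 to 2386 CPM, 4 thalamus markers to 1262 to 2507 CPM, 4 astrocyte markers to 658 to 1327 CPM and 6 fibroblast and meningeal markers to 379 to 1260 CPM. Of these lists, *Foxp2* (neocortex, at 1828 CPM most of that sum), *Fn1* (subiculum, 967 CPM) and *Tcf7l2* (thalamus, 456 CPM) were highest in this cluster. *Gja1* made up 621 CPM of the astrocyte sum on average. Of the other lists, *Cdh5* (endothelium, 130 CPM), *Coch* (CA3, 103 CPM) and *Pcp4* (CA2, 48.8 CPM) were also highest there. *Col1a2* and *Lum*, of the fibroblast and meningeal list, were second highest there (252 and 77.6 CPM). Cluster 15 of the inhibitory neurons had *Rspo2* at 243 and 240 CPM in mutant replicates 1 and 2, from 143 and 102 nuclei. In controls it held 15 nuclei and 1 nucleus. Its 4 inhibitory markers summed to 21.9 to 101 CPM and its 4 excitatory markers to 205 to 271 CPM, and *Cux2*, of the neocortex list, was highest there, so that its name too is not borne out by these lists.

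**Figure D3:**
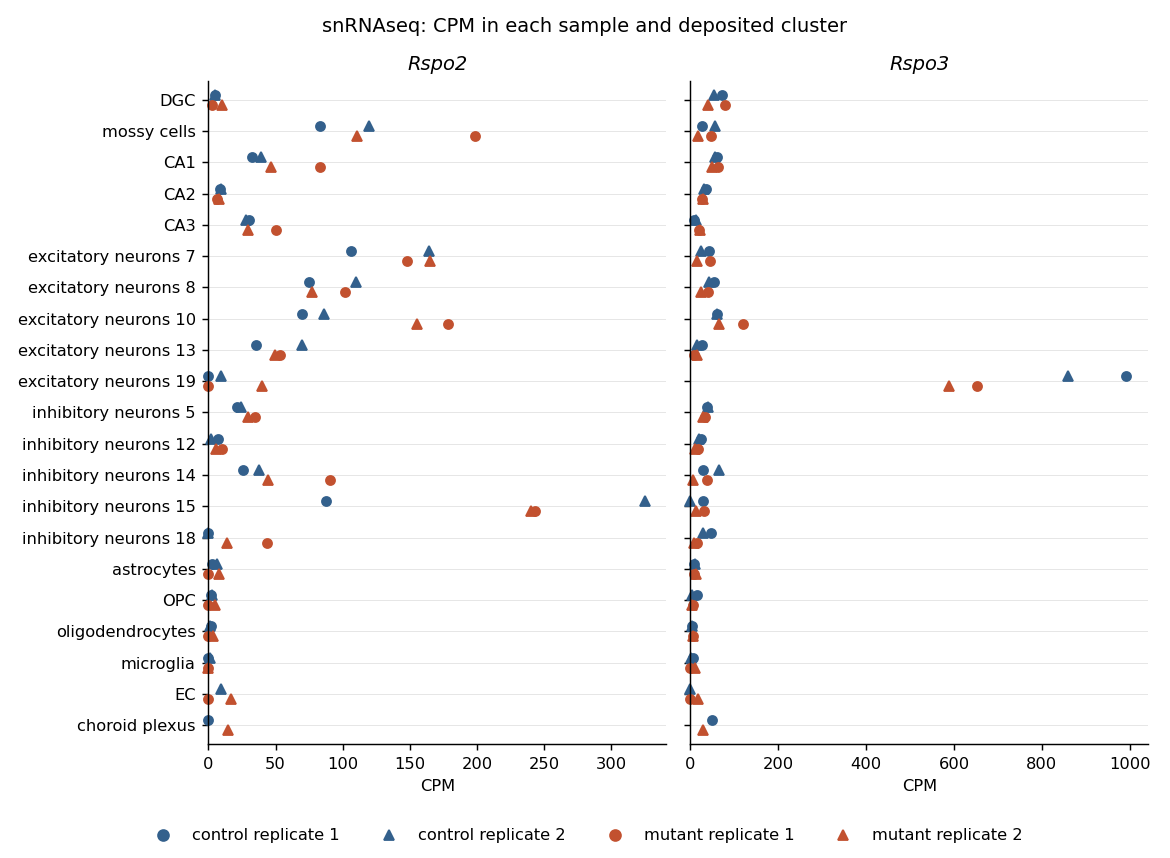
*Rspo2* and *Rspo3* in the deposited clusters, in CPM on linear axes, with 1 point per sample (blue for control, red for mutant). *Rspo3* reached 992 CPM in cluster 19 of the excitatory neurons and stayed at or under 121 CPM in the other clusters, and *Rspo2* was at 240 and 243 CPM in the mutant samples of cluster 15 of the inhibitory neurons, which has 1 nucleus in control replicate 2.

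Some genes followed a member across the 11 types of the control samples more closely than others. Over 13090 genes that reached 10 CPM in both controls of some type, the highest Pearson correlations of log2(CPM + 1) with *Lgr6* were those of *Vwa3b* (r = 0.93), *Gm16267* (r = 0.91) and *Gm39456* (r = 0.90). They were *C030037D09Rik*, *Ephb4* and *Gli3*, the last an effector of Hedgehog signalling, for *Lgr4* (r = 0.95 for each). They were *Armc6* (r = 0.96), *Tstd3* (r = 0.91) and *Sulf1* (r = 0.91) for *Lgr5*. *Rnf43* was followed by *Gm16702* (r = 0.97), *Nkd1* (r = 0.96), an intracellular inhibitor of Wnt signalling, and *Cdc42ep1* (r = 0.96), and *Znrf3* by *Smpd2* (r = 0.92), *Sec61b* (r = 0.91) and *Ccdc78* (r = 0.90). For the ligands, *Rspo1* was followed by *Tha1* (r = 0.92), *Anapc4* (r = 0.91) and the mossy cell marker *Csf2rb2* (r = 0.89), *Rspo2* by *Rsph10b* (r = 0.97), *Gm44644* (r = 0.97) and *Pcsk1* (r = 0.94), and *Rspo3* by *Tmem67* (r = 0.93), *D830036C21Rik* (r = 0.93) and *Ubxn11* (r = 0.92). These are 11 points that share libraries, and with log2(CPM + 5) only 11 of the 24 names stayed in the first 3.

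The comparison of genotypes within a cell type asks whether the cells that remained carried the same level. None of 58 pairs of a member and a type passed at an FC above 2 and an FDR below 0.05 in edgeR, and 0.12% and 0.134% of all 132557 pairs of a gene and a type were lower and higher by this rule. At an unadjusted p below 0.05, 3 pairs were lower and 4 higher, against 5.47% and 5.06% of all pairs, and DESeq2 called 1 pair, *Rspo2* in inhibitory neurons. Genotypes did not overlap in 17 pairs that were lower and 8 that were higher in mutants, beside 23.5% and 18.9% of all pairs. Over 18 deposited clusters, 0 of 79 pairs passed in edgeR at an FC above 2 and an FDR below 0.05. By this rule 0.0889% and 0.101% of all pairs were called lower and higher. At an unadjusted p below 0.05 in edgeR, 3 pairs were lower and 5 higher. The share of all pairs at that p over clusters is not given here. These 2 counts therefore cannot be read as particular to the members.

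In DGCs, 6 of the 8 members passed the filter on low counts, and none was among the 0.64% of genes called lower or the 0.827% called higher. *Lgr6* was at 130 and 153 CPM in mutant replicates 1 and 2, beside 82.1 and 141 CPM in controls, from 54, 524, 934 and 2287 UMIs, respectively. The genotypes overlapped, and the level per DGC nucleus did not pass the test (log2FC 0.38 ± 0.26 SE, edgeR FDR = 0.505). The omission of single samples moved the log2FC between 0.059 (without control replicate 1) and 0.86 (without control replicate 2, edgeR FDR = 0.0387, under the FC threshold). With all nuclei of a sample summed, by contrast, *Lgr6* was at 26.3 and 41.3 CPM in controls and 3.31 and 9.13 CPM in mutants, a 5.42-fold difference with no overlap that missed the threshold (log2FC -2.44 ± 0.46 SE, edgeR FDR = 0.182). It passed in DESeq2 (adjusted p = 1.29e-06), and the log2FC ranged from -3.34 to -1.94 over the omissions of a single sample. The share of *Lgr6* UMIs that came from DGCs was 62.1% and 75.1% in mutant replicates 1 and 2. Without the DGC nuclei, *Lgr6* was at 3.30 and 5.61 CPM in controls and 1.27 and 2.38 CPM in mutants (log2FC -1.27 ± 0.40 SE, edgeR FDR = 0.456).

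**Figure D4:**
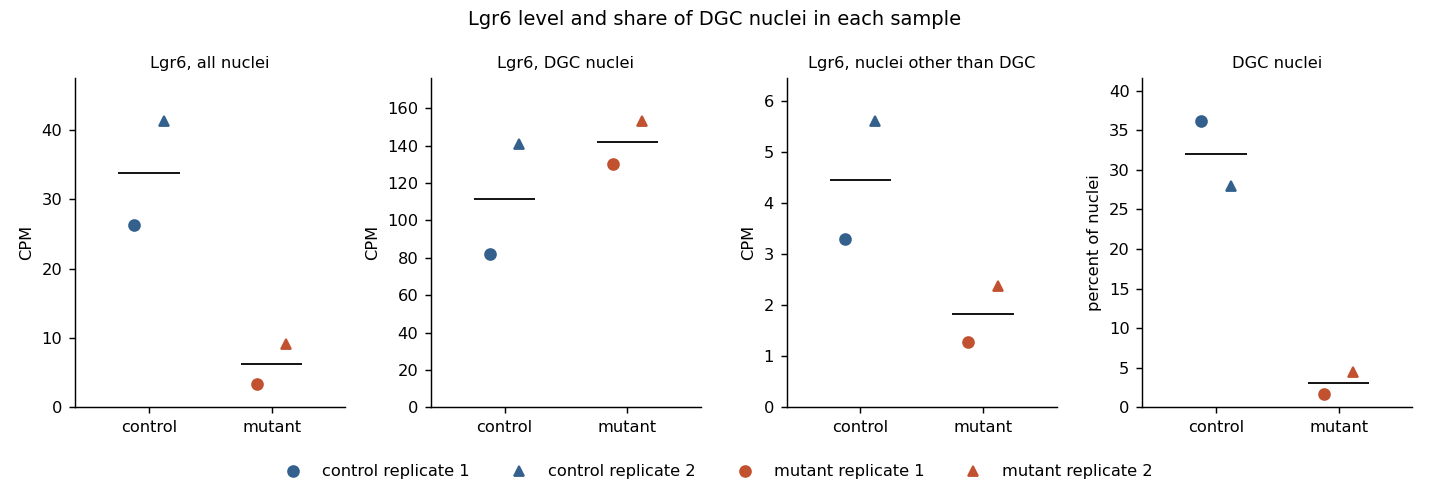
*Lgr6* in CPM over all nuclei, over DGC nuclei and over all other nuclei, and DGCs as a percentage of nuclei, with 1 point per sample and a line at the mean of each genotype, on linear axes from 0. The mutant samples lay below controls over all nuclei (3.31 and 9.13 against 26.3 and 41.3 CPM) and in the DGC share, but at 130 and 153 CPM in DGC nuclei against 82.1 and 141 CPM in controls.

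The DGCs that remained also differed in make-up. *Trhr*, a marker of ventral DGCs, was at 6.68 and 7.44 CPM in control DGCs and 60.4 and 56.9 CPM in mutant DGCs, and *Lct*, a marker of dorsal DGCs, at 25.1 and 28.1 CPM in controls and 12.1 and 9.34 CPM in mutants. The part of this in the DGC values, *Wnt4* included, was not tested. Among DGC nuclei with a *Trhr* UMI, *Lgr6* was at 78.7 and 194 CPM in controls, from 32 and 170 UMIs. In mutants it was at 81.3 and 151 CPM, from 8 and 179 UMIs, and the genotypes overlapped.

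None of the other members tested in DGCs passed. *Rspo2* was low, at 2.41 and 9.93 CPM in mutants, from 1 and 34 UMIs (log2FC 0.82 ± 0.42 SE, edgeR FDR = 0.368). *Rnf43* was at 2.41 and 1.17 CPM, from 1 and 4 UMIs (log2FC -0.30 ± 0.74 SE, edgeR FDR = 0.889). *Rspo3* was at 79.7 and 40.9 CPM in mutant DGCs (log2FC -0.30 ± 0.28 SE, edgeR FDR = 0.650), and *Znrf3* at 121 and 144 CPM (log2FC 0.17 ± 0.18 SE, edgeR FDR = 0.695), both overlapping the controls. *Lgr4* was at 45.9 and 34.7 CPM beside 38.3 and 30.9 CPM in controls (log2FC 0.13 ± 0.22 SE, edgeR FDR = 0.832). DGCs hold both a ligand and a receptor, and 41.3% and 34.8% of all *Rspo3* UMIs of the controls lay in DGCs. *Lgr6* was at 89.0 and 147 CPM in control DGC nuclei with an *Rspo3* UMI and at 79.4 and 138 CPM in those without. An *Rspo3* UMI was found in 26.2% and 30.1% of control DGC nuclei. A nucleus without one may still hold the transcript, so this split cannot separate nuclei that express *Rspo3* from those that do not. In mutants *Lgr6* was at 111 and 155 CPM with an *Rspo3* UMI, from 15 and 127 *Lgr6* UMIs. It was at 140 and 152 CPM without one, from 39 and 397 UMIs.

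Over all nuclei, 4 members had genotypes that did not overlap, 2 lower (*Lgr6* and *Znrf3*) and 2 higher (*Rspo2* and *Lgr5*), beside 22.3% and 26.6% of all genes. The same 4 had an unadjusted p below 0.05, as did 8.49% of genes that were lower and 6.3% that were higher, and none passed in edgeR, where 0.0% of genes were called in either direction. *Rspo2* was at 25.6 and 27.2 CPM in controls and at 84.5 and 45.2 CPM in mutants (log2FC 1.28 ± 0.31 SE, edgeR FDR = 0.207). It passed in DESeq2 (adjusted p = 0.00361), and its log2FC ranged from 0.71 to 1.68 over the omissions of a single sample. Without DGC nuclei, which have little *Rspo2*, controls were at 34.1 and 35.3 CPM and mutants at 85.8 and 46.8 CPM (log2FC 0.92 ± 0.29 SE, edgeR FDR = 0.456). Excitatory neurons outside the named fields, among the types highest in *Rspo2*, made up 10.6% and 6.02% of control nuclei and 34.6% and 12.4% of mutant nuclei, and their part in the difference was not tested. *Znrf3* over all nuclei had a log2FC of -0.60 ± 0.23 SE (edgeR FDR = 0.312) and *Lgr5* of 0.67 ± 0.21 SE (edgeR FDR = 0.258).

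**Figure D5:**
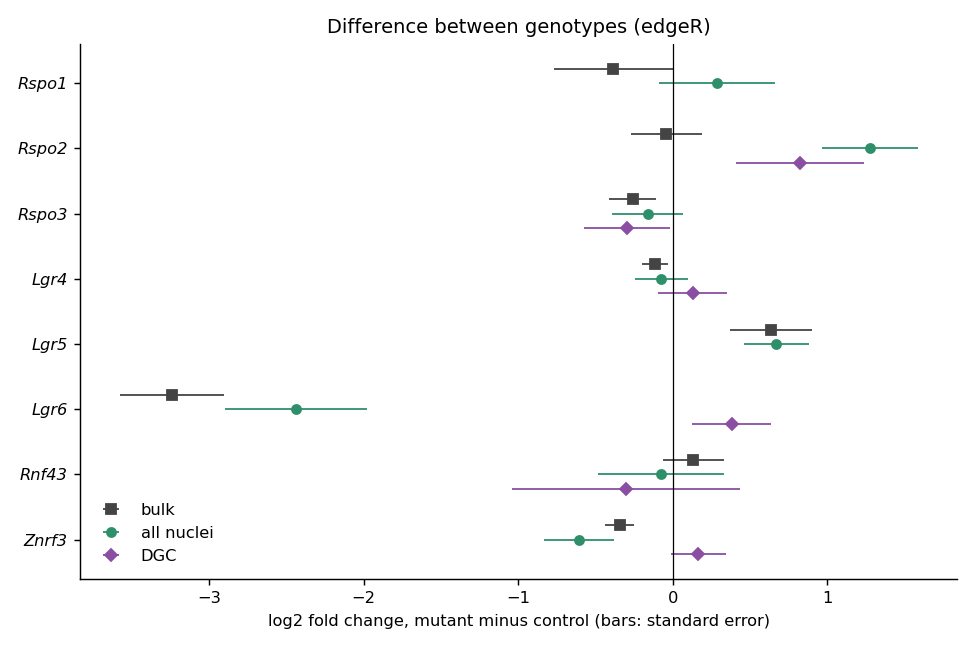
Difference between genotypes as log2 fold change, mutant minus control, with bars of 1 standard error, for bulk RNAseq (squares), all nuclei (circles) and DGC nuclei (diamonds). *Lgr6* lay at -3.24 and -2.44 in tissue and all nuclei but at 0.38 in DGC nuclei, and the other members were between -0.60 and 1.28.

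Within other types, the smallest unadjusted p was that of *Rspo2* in inhibitory neurons, with 20.8 and 21.0 CPM in controls and 67.2 and 40.1 CPM in mutants (log2FC 1.38 ± 0.26 SE, unadjusted p = 0.000553, edgeR FDR = 0.146). The log2FC was 1.73 without mutant replicate 2, 1.38 without control replicate 1, 1.36 without control replicate 2 and 0.96 without mutant replicate 1. It did not pass without the 5% of nuclei with most UMIs (edgeR FDR = 0.188). Inhibitory neurons include cluster 15 with its 245 mutant and 16 control nuclei. In cluster 5, the largest of the inhibitory clusters, *Rspo2* was at 21.0 and 24.1 CPM in controls and 34.5 and 29.6 CPM in mutants (log2FC 0.52 ± 0.20 SE, edgeR FDR = 0.414). In cluster 14 it was at 25.6 and 37.9 CPM in controls and 90.3 and 44.6 CPM in mutants, also without overlap (log2FC 0.81 ± 0.47 SE, edgeR FDR = 0.913). The 4 inhibitory markers summed to 116 to 465 CPM in cluster 14, so its name is not borne out either. Fibroblast and meningeal markers summed to 1442 to 2481 CPM there, mural markers to 1380 to 2012 CPM and endothelial markers to 1027 to 1898 CPM. Thalamus markers summed to 3703 to 6537 CPM, of which *Rora* averaged 4261 CPM. In cluster 10 of the excitatory neurons *Rspo2* was at 69.8 and 85.9 CPM in controls and 179 and 155 CPM in mutants (a 2.22-fold difference, unadjusted p = 0.000556, edgeR FDR = 0.207). In CA1, *Rspo2* was at 82.9 and 46.7 CPM in mutants beside 32.3 and 39.4 CPM in controls (log2FC 0.83 ± 0.26 SE, edgeR FDR = 0.421). The log2FC there ranged from 0.36 to 1.19 over the omissions of a single sample. In mossy cells, with 198 and 110 CPM in mutants, the genotypes overlapped (log2FC 0.50 ± 0.33 SE, edgeR FDR = 0.659).

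Of 8 members tested in CA3 pyramidal neurons, 3 were above the controls in both mutants (*Lgr4*, *Lgr5* and *Rspo3*) and 2 below (*Lgr6* and *Rspo1*). The share of all genes that did so in CA3 is not given here. Over all types tested, 18.9% of pairs of a gene and a type were higher and 23.5% lower without overlap. The counts in CA3 therefore cannot be read as particular to this type or to the members. Of the 3 above the controls, *Lgr4* differed least (log2FC 0.20 ± 0.19 SE, edgeR FDR = 0.716). *Lgr5* was at 0.590 and 2.38 CPM in controls, from 3 and 22 UMIs, and at 7.82 and 6.43 CPM in mutants, from 23 and 88 UMIs (log2FC 2.10 ± 0.49 SE, edgeR FDR = 0.186). Its log2FC ranged from 1.57 to 3.51 over the omissions of a single sample, the highest without control replicate 2. *Rspo3* was at 7.67 and 14.1 CPM in controls and 19.4 and 21.6 CPM in mutants (log2FC 0.92 ± 0.28 SE, edgeR FDR = 0.270). Its log2FC ranged from 0.58 to 1.43 over these omissions, the highest also without control replicate 2. *Lgr6* in CA3, CA1 and inhibitory neurons had log2FC of -1.16, -1.36 and -1.93, at levels of 0.340 to 8.45 CPM, and did not pass. Without control replicate 1 its log2FC was -1.47 in CA3 and -2.41 in inhibitory neurons. The values were unstable. In CA3 the log2FC was -4.15 without mutant replicate 2, -0.63 without control replicate 2, -0.70 without mutant replicate 1 and -0.33 without the 5% of nuclei with most UMIs. It was -1.04 in inhibitory neurons without control replicate 2 and -2.11 in CA1 without mutant replicate 2. The DGC marker *Dsp* was at 2.28 and 1.68 CPM in CA1 of controls and 0.110 and 0.303 CPM in CA1 of mutants. In inhibitory neurons *Dsp* was at 1.49 and 1.49 CPM in controls and 0 and 0.546 CPM in mutants. *Prox1*, *C1ql2* and *Plk5* were also lower in both mutants in CA1 and inhibitory neurons, and *Calb1* overlapped. The part of free RNA in these *Lgr6* values was not tested.

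In glia, *Lgr4* was at 166 and 202 CPM in astrocytes of mutants, below both controls (log2FC -0.35 ± 0.20 SE, edgeR FDR = 0.581), and *Znrf3* at 307 and 294 CPM, also below both controls (log2FC -0.37 ± 0.18 SE, edgeR FDR = 0.484). *Rnf43* in astrocytes was at 8.60 and 8.35 CPM in mutants beside 23.2 and 19.4 CPM in controls (log2FC -1.26 ± 0.40 SE, unadjusted p = 0.00557, edgeR FDR = 0.204). The mutant values came from 3 and 21 UMIs and the control values from 26 and 40. In OPCs, *Lgr5* was at 94.7 and 136 CPM in mutants (log2FC 0.52 ± 0.25 SE, edgeR FDR = 0.585) and *Rnf43* at 153 and 142 CPM (log2FC 0.15 ± 0.21 SE, edgeR FDR = 0.901), both overlapping the controls. In oligodendrocytes, *Rnf43* was at 86.1 and 105 CPM in mutants, below both controls (log2FC -0.18 ± 0.25 SE, edgeR FDR = 0.951).

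The rest of the Wnt pathway was read from a list of 76 ligands, secretion factors, receptors, antagonists, effectors and targets. In bulk RNAseq, 0 of the 71 that were tested passed at an FC above 3 and an FDR below 0.05 in edgeR, with a median log2FC of 0.02 beside 0.01 for all genes, and DESeq2 called 2. At an unadjusted p below 0.05, 11 were lower and 10 higher, beside the 9.94% and 8.86% of all genes given above. The lowest FDR was that of *Apcdd1*, a target that encodes a Wnt inhibitor, at 21.2 and 20.0 TPM in controls and 9.75 and 9.68 TPM in mutants (log2FC -0.95 ± 0.09 SE, edgeR FDR = 0.0244, under the FC threshold). Leaving out control replicate 1 gave an FDR of 0.220, and leaving out control replicate 2 gave 0.253. The ligand *Wnt9b* (log2FC -2.14 ± 0.36 SE, edgeR FDR = 0.0747) and the receptor *Fzd10* (log2FC 0.84 ± 0.14 SE, edgeR FDR = 0.0772) followed. The log2FC of *Wnt9b* ranged from -2.46 to -1.85 over the omissions of a library, the lowest without mutant replicate 1.

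*Wls* itself was at 10.5 and 10.1 TPM in bulk controls and 2.61 and 5.44 TPM in mutants (log2FC -1.31 ± 0.30 SE, edgeR FDR = 0.117). The log2FC of *Wls* ranged from -1.84 to -0.94 over the omissions of a library, the lowest without mutant replicate 2. Within nuclei it was lower in astrocytes (log2FC -4.28 ± 0.45 SE, edgeR FDR = 0.000227), where 0.253% of genes were lower, in oligodendrocytes (-4.14 ± 0.41 SE, edgeR FDR = 6.87e-05, 0.0892%) and in OPCs (-3.16 ± 0.47 SE, edgeR FDR = 0.00634, 0.121%). The call in astrocytes was lost without mutant replicate 2, control replicate 1 or control replicate 2. The call in OPCs was lost without control replicate 2 and in DESeq2 (adjusted p = 0.257). Over the omissions of a single sample, the log2FC of *Wls* ranged from -4.44 to -3.87 in astrocytes. It ranged from -9.46 to -3.96 in oligodendrocytes and from -7.89 to -2.88 in OPCs. In DGCs, *Wls* did not pass (log2FC 0.49 ± 0.42 SE, edgeR FDR = 0.622). Of the 43 listed genes tested in DGCs, the ligand *Wnt4* rose, from 5.28 and 8.91 CPM in controls to 21.7 and 40.6 CPM in mutants (log2FC 2.31 ± 0.34 SE, edgeR FDR = 0.0137). Without mutant replicate 1 its FDR was 0.0689, and without mutant replicate 2, which leaves 9 UMIs in the mutant, it was 0.492 (log2FC 1.55). No other listed gene passed in any of the 11 types.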

How the data were processed

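Samples of 2 mutant and 2 control mice per assay were grouped by the genotype and replicate number in their titles. Bulk RNAseq reads were quantified by the authors on mm10 with RSEM 1.3.0 and Bowtie2 2.2.9 (per the submitters' processing notes), who deposited an expected count and a TPM value per gene and library, and a matrix of signal that holds expected counts over a size factor per library. Nuclei were processed by the authors with Cell Ranger 3.1.0 on a pre-mRNA index, and they deposited a UMI count per gene and nucleus, a size factor per nucleus (a ratio, not used) and a cell type. The kit for bulk libraries keeps strand, and whether counting used it is not given in the sources used here.

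Expected counts were rounded and compared with edgeR 4.0.16 (R 4.3.3, filterByExpr, TMM, quasi-likelihood test, Benjamini-Hochberg adjustment over all genes tested). The authors' EBSeq was not run. UMIs were summed per mouse and cell type, and types with 10 nuclei in every sample were tested. Calls used the thresholds of the study, FC above 3 (bulk) or 2 (nuclei) and FDR below 0.05. SE is the size of log2FC over the root of F. No doublet caller was run, and leaving out the 5% of nuclei with most UMIs was tried instead. Tests were checked on simulated data with large changes in genes of higher counts, for bulk, DGCs and astrocytes. That check does not cover small differences or genes with few counts. The genes named are the 9 members, the called genes of the Wnt list or the 3 with the lowest FDR, the 3 genes most like each member, *Wls*, *Prox1*, *Xist*, *Ddx3y* and the cell type markers. The members and lists were chosen with earlier results of these data known, and *Trhr*, *Lct* and clusters 5, 10, 14, 15 and 19 were singled out after their values were seen. Alternatives were RLE scaling, DESeq2 1.42.0, no filter, limma 3.58.1 on log2(value + 1) of the deposited matrix, the replicate number as a block, no minimum FC, other selections of nuclei, and the omission of each sample. Positions and overlaps are from gencode vM21 (GRCm38). Python steps relied on scipy 1.17.1, numpy 2.4.6 and pandas 2.3.3. An exact permutation test of 2 against 2 samples cannot go below p = 0.33, so none was used. Intervals and limits for a count of 0 cover counting error only.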

Additional observations from a re-analysis of the deposited data

Results flagged for a closer look

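In 5 members, both mutant samples lay above both controls in some cell types and below both controls in others, with no minimum number of UMIs required. Over the 11 types, 18.9% of all pairs of a gene and a type were higher and 23.5% lower without overlap. How many of all genes parted both ways was not counted, so this cannot be read as a trait of the members. *Rspo2* had a log2FC of 0.83 in CA1, 0.42 in excitatory neurons and 1.38 in inhibitory neurons but -0.20 in CA2. *Rspo3* had 0.92 in CA3 but -0.14 in CA2 and -0.45 in inhibitory neurons. *Lgr4* had 0.20 in CA3 but -0.35 in astrocytes. *Lgr5* had 0.87 in CA1 and 2.10 in CA3 but -0.54 in CA2. *Rnf43* had 0.37 in CA1 but -1.26 in astrocytes, -0.50 in inhibitory neurons and -0.18 in oligodendrocytes. The difference between types was not tested, and none of these values passed in edgeR. Groups of 2 samples were not tested for outliers.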

How the results depend on the processing

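The 9 members' calls depended on the library left out. Over the 4 omissions of a library, bulk RNAseq called 0 to 1 member (0 without either control) and 0 to 5 genes of the Wnt list, pairs of a member and a type came to 0 to 3, and members over all nuclei to 0 to 2. Of the Wnt list, DESeq2 called 2 genes, the fit with no filter on low counts 5 and the fit with no minimum FC 1. Of pairs of a member and a type, DESeq2 called 1 and the fit with no filter 3. Over all nuclei, DESeq2 called 2 members. Only 11 of the 24 names of similar genes were kept with a pseudocount of 5. With the replicate number as a block, edgeR called 5 pairs (*Lgr6* in CA1, CA3 and inhibitory neurons, *Rspo2* in inhibitory neurons and *Lgr5* in CA3) and 2 members over all nuclei (*Lgr6* and *Rspo2*), and bulk RNAseq kept *Lgr6* as its 1 called member. The share of all genes called was not taken under DESeq2, without the filter, with the block or on an omission. These counts therefore cannot be read as particular to the members. Deviations from the genotype means correlated at 0.02 between same-numbered bulk libraries and 0.45 between same-numbered snRNAseq samples, and 2 pairs are too few to treat the numbers as pairs. Small log2FC changed sign on omission of a library: the range over the omissions was -0.96 to 0.036 for *Rspo1*, -0.35 to 0.21 for *Rspo2* and -0.064 to 0.30 for *Rnf43* in bulk, and -0.62 to 0.29 for *Rspo3* and -0.054 to 0.27 for *Znrf3* in DGCs. All 5 changed sign without mutant replicate 2, and *Rspo2* in bulk also without control replicate 1 (0.13). Of the values of single genes under the alternatives, 335 kept direction and side of the threshold, 26 came to pass it, 9 ceased to pass it and 6 changed sign. The cause was not tested. No nucleus had under 1500 UMIs, so leaving such nuclei out changed nothing, and these fits are counted among the 335. The 335 also hold the ratios of *Lgr6* within replicate numbers, which have no FDR and so no side of the threshold. The count of 335 therefore overstates how many values were put to a test that could move them. The ratios within replicate numbers and *Rspo3* without cluster 19 were added after seeing the data. With the block, *Apcdd1* had an FDR of 0.0504 in edgeR. Depth limits *Rspo1* and *Rspo4* throughout and the 90 DGC nuclei of mutant replicate 1.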
